A study of Megathyrsus maximus with 33 samples.

Results

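The change of the Guinea grass leaf transcriptome between the second and the first sampling was described for the plots that were warmed but received no extra CO2 (eT). The comparison rests on 8 of the 32 libraries of the series, 4 eT plots sampled after 50 days of treatment (time point B) and the same 4 plots after 30 days (time point A), and covers all 39208 transcripts with deposited log2 values. In eT, infrared ceramic heaters warmed the canopy of open-air field plots at ambient CO2, with 2 °C above ambient as the labelled treatment. The sources also name a smaller warming, and the temperature reached was not analysed here. The plots set beside it were eCeT (warming and elevated CO2), eC (600 ppm CO2 at ambient temperature) and C (ambient CO2 and temperature), each with 4 plots sampled at the same time points. The sample is the youngest fully expanded leaf, with 6 leaves per plot pooled before RNA extraction, so a library stands for 1 plot at 1 time point. Days of treatment, plant age and weather all differ between the time points and cannot be told apart in any treatment. The sources also disagree on the calendar date of time point B.

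The question is which transcripts changed under warming between the samplings and whether the change differed from that in the other treatments. The reads recovered from the deposited values numbered 10860852 to 15638548 per eT library at time point B and 6148491 to 11553980 at time point A, and the smallest library was that of plot 3 at time point A. Levels are given as CPM, the recovered reads per 1000000 of the TMM-scaled library. In the smallest library a single read is worth 0.225 CPM, so low transcripts are measured coarsely. The largest transcript, c78052_g1, which has no match in the lists used here, took 25.9%, 9.49%, 27.5% and 21.7% of the reads of plots 1 to 4 at time point B and 10%, 5.57%, 27.6% and 20.4% at time point A. Its time points overlapped and its log2 change of 0.40 ± 0.93 (SE) did not pass the test (limma adjusted p = 0.836). Of leaf-defining transcripts, only a plastocyanin and a light-harvesting homolog could be checked, and both had reads in all 8 libraries. Names below are those of the Arabidopsis match given by the study, and a name says nothing about the function shown in Guinea grass.

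Guinea grass is a C4 pasture grass. In plants, heat shock proteins hold or refold damaged proteins and are made in quantity when cells are heated, and also at certain stages of growth. Pathogenesis-related proteins, such as glucanases, chitinases and osmotins, attack microbial walls or membranes and mark an active defence, and receptor kinases at the cell surface sense microbes and wall damage.

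Under warming, and with the deposited scaling, nearly as many transcripts rose as fell between the time points. Of 39208 transcripts, 5637 (14.4%) changed between the time points at a limma adjusted p under 0.1, the threshold of the study. Of these, 2805 (7.15% of all tested) were higher and 2832 (7.22%) lower at time point B, and the median size of a called change was 1.02 on the log2 scale. Past a change of 1 on that scale, 1543 were higher and 1346 lower. All 4 plots moved upward for 2519 of the called higher transcripts, and all 4 moved downward for 2567 of the called lower ones, which over all transcripts was so for 16.8% and 14%. The 4 libraries of each time point did not overlap for 1707 called higher and 1919 called lower transcripts. Over all tested transcripts that was so for 7.11% upward and 7.03% downward, called or not.

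The balance of directions depends on the scaling of the libraries. The share of higher calls was 49.8% with the deposited TMM scaling, 38.2% with libraries centred on their medians, 71.9% with no TMM scaling and 28% with 5 reads added to every transcript. Added reads are worth more CPM in the smaller TMM-scaled libraries of time point A, so the last setting itself moves scarce transcripts downward. In the deposited values, 0 reads at both time points give a log2 change of -0.23, -0.07, -1.23 and -0.83 in plots 1 to 4. Without TMM scaling the median change of all transcripts was 0.204 on the log2 scale, against 0.05 with it, so the direction of a small change holds for the TMM scaling only. Leaving out a plot lowered the count of calls to 2876 without plot 1, 2737 without plot 2, 3652 without plot 3 and 4503 without plot 4. Across transcripts, the changes of any pair of eT plots correlated with r between 0.255 and 0.368, a description over transcripts that share libraries.

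With the deposited scaling, called abundant transcripts were mostly lower and called scarce ones mostly higher at time point B, and the second of these statements turns round with 5 reads added. Among the 97 transcripts with a mean of 1000 or more CPM over the 8 eT libraries, 23 were lower and 0 higher at time point B in limma (0 higher also at an unadjusted p under 0.05 and with voom on the recovered reads). In the class of 100 to 1000 CPM, 312 of 1150 were lower and 47 higher. In the class of 10 to 100, 1259 of 8407 were lower and 623 higher. The order turned round below that, with 835 lower and 1497 higher among 13764 transcripts of 1 to 10 CPM, and 403 lower and 638 higher among 15790 below 1. Both classes above 100 kept more falls than rises when the libraries were left without TMM scaling (139 against 46, and 16 against 0). The class of 10 to 100 did not, with 407 lower and 622 higher there. With 5 reads added, the class below 1 CPM had 1398 lower and 54 higher calls and that of 1 to 10 had 1200 lower and 975 higher, so both directions below 10 depend on how low counts are handled. That setting itself moves scarce transcripts downward, because the libraries of time point A are smaller. The abundant classes leaned the same way in the other treatments: over the same class of 100 to 1000, 112 were lower and 36 higher in eCeT, 396 and 22 in eC, and 314 and 57 in C.

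**Figure D1:**
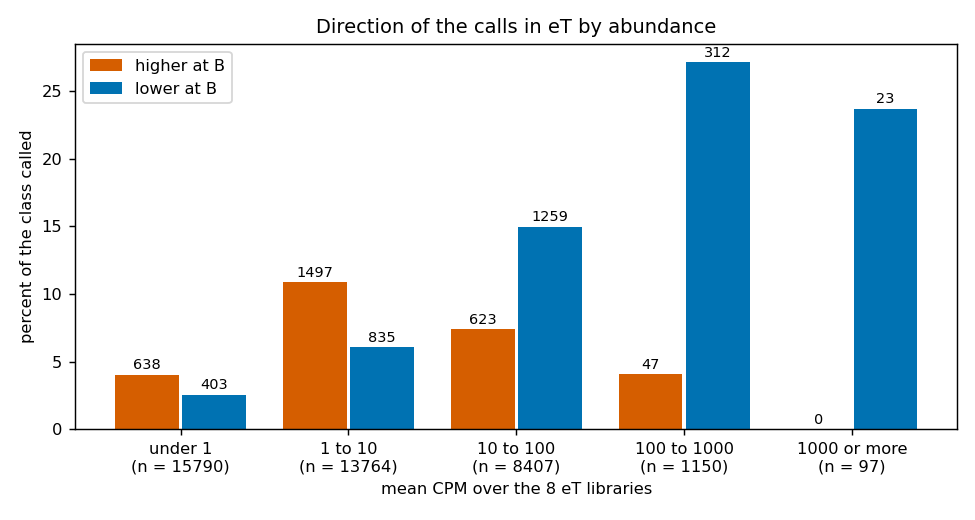
Percent of transcripts called higher (orange) or lower (blue) at time point B in eT, by mean CPM over the 8 eT libraries; numbers above the bars are transcripts. With the deposited scaling falls outnumber rises from 10 CPM upward, as in the class of 100 to 1000 with 312 lower and 47 higher; without TMM scaling this holds from 100 CPM upward.

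Transcripts matched to Arabidopsis genes were described in 9 lists. All members come from tables that the study built on these libraries: eCeT against C at time point A, split by co-expression modules of that time point, or correlations with metabolites at time point B. They are therefore not a random sample of the transcriptome, and values in C and eCeT took part in choosing them. The study's plots of transcripts against metabolites show eT values at both time points. The eT libraries of time point B thus took part in the correlations, and those of time point A may have entered the modules. The lists are therefore not independent of the libraries compared here.

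Most of the heat shock proteins and co-chaperones fell. Of the 9 members 6 fell, none rose, and all 9 had a change below 0 under each scaling tried, against 7.22% of all transcripts called lower. The list's median change was -1.6 on the log2 scale, beside 0.05 for all transcripts, and its median in plots 1 to 4 was -1.66, -1.96, -1.49 and -1.97. In bulk leaf RNA, fewer cells of a type and less RNA per cell cannot be told apart.

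Small heat shock proteins bind unfolding proteins and keep them from clumping. The class I small heat shock protein c76756_g2 had 7.77, 7.89, 17.8 and 17.9 CPM in plots 1 to 4 at time point B, against 25.6, 48.8, 62.1 and 239 at time point A. Every plot fell and the time points did not overlap, with plot 4 the highest at time point A, and the change was -2.47 ± 0.55 (SE) on the log2 scale (limma adjusted p = 0.00889). The chloroplast small heat shock protein HSP21, c78721_g1, which guards plastid proteins, had 1.1, 1.02, 5.27 and 5.85 CPM at time point B, against 6.66, 10.9, 14.9 and 27.4 at time point A. Its libraries were again apart, with a change of -2.41 ± 0.69 (limma adjusted p = 0.0361), but the call was lost without plot 1 (0.114) or plot 2 (0.165). The class II member c85117_g1 had 7.35, 9.3, 20.3 and 15.7 CPM at time point B and 16.1, 36.4, 40.5 and 61.7 at time point A. Each plot fell, although the ranges overlapped, and the change was -1.52 ± 0.31 (limma adjusted p = 0.00508). A further small heat shock protein, c84367_g1, was seen with 20 reads in all at time point B and 31 at time point A and did not pass the test (-1.49 ± 0.77, limma adjusted p = 0.243).

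MBF1C, a transcriptional coactivator that is switched on by heat in Arabidopsis, was measured on c75211_g1. It had 0.592, 0.938, 1.92 and 1.81 CPM at time point B, against 4.77, 7.69, 7.65 and 6.55 at time point A. No library of time point B reached the lowest of time point A, and the change was -2.43 ± 0.60 (limma adjusted p = 0.0155). HSP101, the chaperone that pulls proteins out of aggregates (c88586_g2), had 2.37, 9.93, 3.54 and 10.9 CPM at time point B and 7.55, 18.1, 18 and 31.5 at time point A. All 4 plots fell within overlapping ranges (-1.6 ± 0.43, limma adjusted p = 0.0271), and without plot 3 the adjusted p was 0.128. The co-chaperone BAG6 (c95990_g1) had 4.65, 9.3, 11 and 13.3 CPM at time point B and 11.5, 15.6, 26.6 and 60.2 at time point A. It fell by 1.37 ± 0.40 on the log2 scale (limma adjusted p = 0.0367), a call lost without plot 1 (0.103) or plot 4 (0.153).

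Of the members that did not pass, the DnaJ-domain co-chaperone c88026_g1, which hands substrates to HSP70, had 30.1, 43.1, 35.4 and 45.4 CPM at time point B and 51.3, 53, 54 and 43.5 at time point A. Its change was -0.40 ± 0.18 (limma adjusted p = 0.169, and 0.1, just under the threshold, without plot 4). An HSP90-type transcript, c69462_g3, was near the detection limit, with 7 reads over the 4 libraries of time point B and 25 over those of time point A. Without plots 1, 2, 3 and 4 in turn, 4, 5, 5 and 6 members were called lower. Plot 4 was the highest plot at time point A for 5 of the 6 called members, while the fall was present in all 4 plots for each of the 6.

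**Figure D2:**
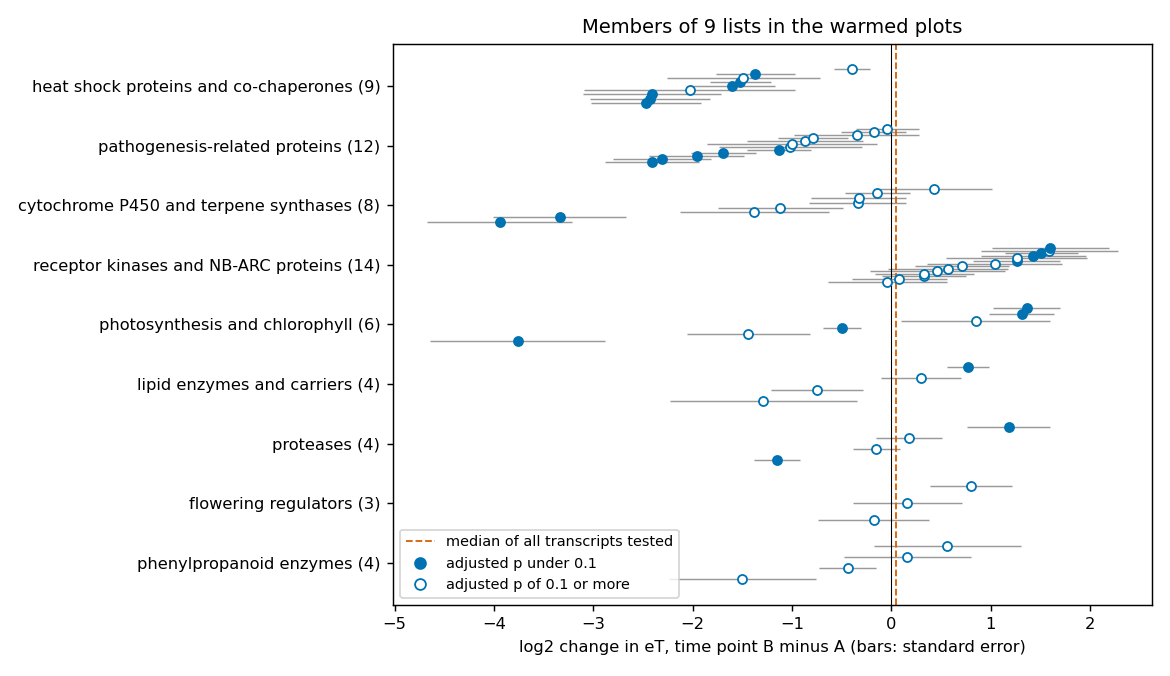
Log2 change in eT, time point B minus A, of every member of the 9 lists, with the standard error as a bar; filled points passed an adjusted p of 0.1, and the dashed line is the median of all transcripts, 0.05. All 9 heat shock members and all 12 pathogenesis-related members lie left of 0, and with the deposited values 13 of the 14 receptor kinase and NB-ARC members lie right of it (8 with 5 reads added).

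Some of the pathogenesis-related transcripts also fell. Of 12 members 5 fell and none rose, against 7.22% of all transcripts called lower and 7.15% called higher, and all 12 had a change below 0 with TMM scaling (11 without it). The median was -1.01 on the log2 scale and was uneven across plots, -1.25, -2.54, -0.37 and -0.33 in plots 1 to 4. Plot 2 had the highest level at time point A in all 5 called members, and without that plot 3 members were called, 3 had a change above 0 and the median was -0.55.

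The largest fall in this list was that of c93254_g1, a barwin-related protein placed here only by the name of its match. It had 1.44, 1.17, 0.479 and 1.63 CPM in plots 1 to 4 at time point B, against 6.56, 9.9, 4.28 and 4.29 at time point A. The time points were apart, with a change of -2.41 ± 0.47 (limma adjusted p = 0.0035). Beta-1,3-glucanases cut a polymer of fungal walls. The glucanase c83775_g1 had 1.35, 1.09, 0.575 and 2.29 CPM at time point B and 5.47, 22.1, 3.6 and 3 at time point A, apart in every library (-2.31 ± 0.49, limma adjusted p = 0.00641). A related glucanase, c79266_g4, had 1.61, 1.95, 0.383 and 2.72 at time point B, against 4.77, 20.4, 3.15 and 2.68 at time point A. Plot 4 was level in that transcript, and its fall of 1.96 ± 0.48 on the log2 scale (limma adjusted p = 0.0159) was not called without plot 2 (0.128). Glucanases of one family can share reads, so the pair may not be separate measurements.

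The PR1-type protein c93531_g5 is matched to a relative of PR1, the classic marker of salicylic acid defence, and not to that marker. The levels of c93531_g5, 7.61, 6.49, 8.14 and 11 CPM at time point B, lay below all 4 of time point A, 24.4, 54.3, 17.1 and 21.5 (-1.69 ± 0.33, limma adjusted p = 0.00397). Osmotins are antifungal proteins that also rise in dry or salty conditions. The osmotin c77132_g2 had 22.6, 22.7, 24.3 and 37.6 CPM at time point B and 51.7, 144, 31.7 and 45.3 at time point A. It fell by 1.13 ± 0.32 on the log2 scale (limma adjusted p = 0.0339) and was not called without plot 1 (0.109) or plot 2 (0.275). A second abundant osmotin, c79024_g1, was lower in every library of time point B (26.8 to 32.6) than of time point A (38.2 to 107) but missed the threshold (-0.79 ± 0.35, limma adjusted p = 0.166). A chitinase, c85177_g1, showed a change of -0.04 ± 0.32, and the remaining 5 members not called ranged from -0.18 to -1.02.

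**Figure D3:**
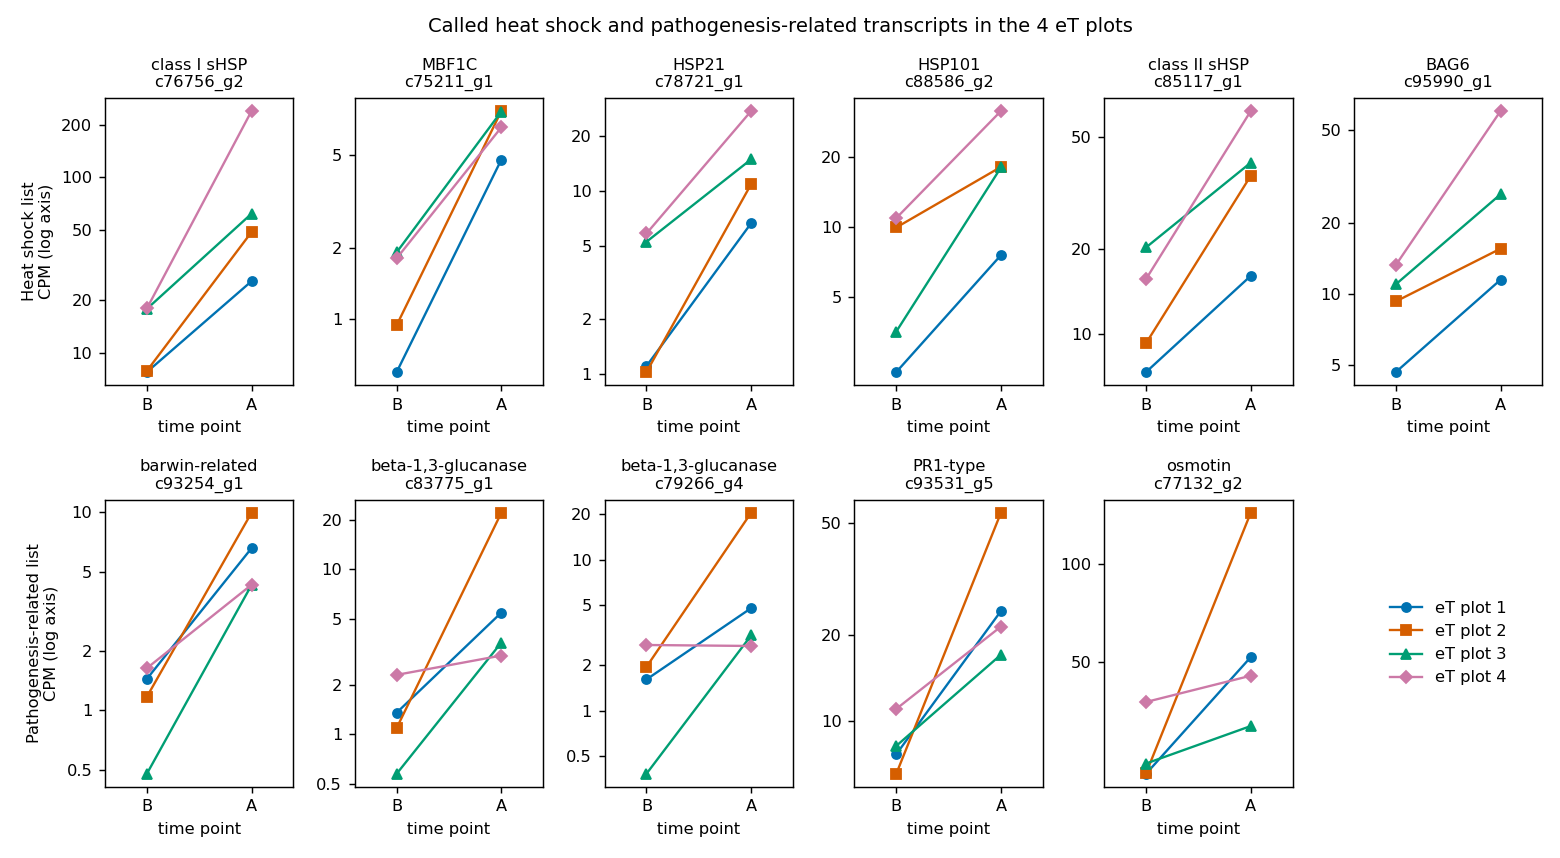
CPM (log axis) of the 6 called heat shock members (top) and the 5 called pathogenesis-related members (bottom) in the 4 eT plots at time point B (left of each panel) and A (right); each line joins the libraries of 1 plot. Plot 4 starts highest at time point A in most heat shock panels (239 for the class I small heat shock protein) and plot 2 in all pathogenesis-related panels (144 for osmotin).

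A few receptor kinase and NB-ARC transcripts rose. NB-ARC proteins are receptors inside the cell that recognise pathogen effectors. Of 14 members 4 rose, none fell, and 13 had a change above 0, against 7.15% of all transcripts called higher. The median was 0.87 (0.71 without a wall-associated kinase that had 1 read at time point A), with 1.2, 0.65, 0.72 and 1.00 in plots 1 to 4. Each member was scarce, and both the counts and the sign rest on few reads. With 5 reads added, a setting that itself moves scarce transcripts downward, 2 were called, 8 were above 0, and the median was 0.09. With median centring 2 were called and 12 were above 0.

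A leucine-rich repeat receptor kinase, c80773_g2, had 3.04, 2.89, 2.3 and 3.5 CPM in plots 1 to 4 at time point B, against 1.29, 1.31, 0.225 and 1.82 at time point A. The time points were apart (1.51 ± 0.37, limma adjusted p = 0.0147), and without plot 3, whose library of time point A held 1 read, the adjusted p was 0.107. An S-locus lectin kinase, c73129_g1, had 2.87, 2.97, 1.53 and 3.92 at time point B, against 0.795, 1.64, 1.35 and 0.751 at time point A (1.26 ± 0.44, limma adjusted p = 0.0822), with adjusted p of 0.264, 0.149 and 0.294 without plots 1, 2 and 4. A receptor-like kinase-related transcript, c90382_g1, had 49 reads in all at time point B and 10 at time point A (1.6 ± 0.59, limma adjusted p = 0.0965). That call was lost whichever plot was left out, at 0.189, 0.191, 0.241 and 0.192. A wall-associated kinase, c89574_g8, had 29 reads at time point B and 7 at time point A (1.43 ± 0.53, limma adjusted p = 0.097), and was not called without plots 1, 2 or 4 (0.481, 0.233 and 0.115). Only 1, 1, 2 and 1 of the 14 members were called without plots 1 to 4 in turn. The sole member below 0 was an ADR1-like NB-ARC protein, c70514_g1, at -0.04 ± 0.60.

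Among cytochrome P450 and terpene synthase transcripts, 2 of 8 fell and none rose, against 7.22% of all transcripts called lower and 7.15% called higher. The list's median was -0.73, or -0.34 without a terpene synthase that had 0 reads at time point B and 2 at time point A. The CYP79 homolog c92299_g1 belongs to the family that turns amino acids into oximes, an entry step to nitrogen-bearing defence compounds. It had 0.423, 0.234, 0.192 and 0.181 CPM in plots 1 to 4 at time point B, against 3.58, 3.11, 7.43 and 4.08 at time point A. All 4 plots fell steeply and the libraries were far apart (-3.94 ± 0.73, limma adjusted p = 0.00267). A CYP76G homolog, c78858_g1, had 0.423, 0.234, 0.287 and 0.483 CPM at time point B, against 1.99, 2.62, 10.4 and 3.97 at time point A (-3.34 ± 0.67, limma adjusted p = 0.00453). Both calls held with any plot left out. The other 6 members were not called, and apart from that terpene synthase their changes lay between -1.12 and 0.43. With 5 reads added, 4 members of the list were called lower.

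Photosynthesis and chlorophyll transcripts went in both directions, with 2 higher and 2 lower of 6, against 7.15% and 7.22% of all transcripts. A light-harvesting protein of photosystem I, c82081_g1, from the family of antenna proteins that pass light energy to the reaction centre, had 27.2, 27.1, 19.6 and 22.9 CPM in plots 1 to 4 at time point B, against 19.7, 12.3, 5.18 and 6.01 at time point A. All plots rose, with plot 1 of time point A just above plot 3 of time point B (1.36 ± 0.34, limma adjusted p = 0.0176). A protein of NDH-dependent cyclic electron flow, c84013_g1, which helps to make ATP without NADPH, had 27.6, 25.9, 13.8 and 12.7 at time point B, against 14.9, 7.12, 5.85 and 5.26 at time point A (1.31 ± 0.33, limma adjusted p = 0.0185). Its adjusted p was 0.112 without plot 2.

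An ACD1-like oxygenase, c67128_g1, resembles the enzyme that opens the chlorophyll ring during breakdown. It had 0 reads in all 4 libraries at time point B and 18 in all at time point A (0.298, 0.409, 1.8 and 0.215 CPM), which makes it at least 8.6-fold lower when 3 reads are set as the floor over the group (limma adjusted p = 0.0117). The abundant ribulose-5-phosphate 3-epimerase c81866_g1, an enzyme of the Calvin cycle, had 427, 467, 450 and 479 CPM at time point B and 816, 734, 564 and 513 at time point A. Its fall of 0.50 ± 0.19 on the log2 scale was at the edge of the threshold (limma adjusted p = 0.0996). It was not called without plots 1, 2 or 3 (0.366, 0.284 and 0.146), without TMM scaling (0.405) or with quantile normalization (0.834). Plastocyanin, c66714_g1, the copper protein that carries electrons to photosystem I, had 3.89, 2.97, 5.46 and 3.68 CPM at time point B and 8.95, 8.92, 7.65 and 21.1 at time point A. Although the libraries did not overlap, the change of -1.44 ± 0.62 missed the threshold in the model of all 32 libraries (limma adjusted p = 0.154) and passed it in a fit of the eT libraries alone (0.00843), with voom on the recovered reads (0.0393) and with 5 reads added (0.0868). CRR3, a further NDH component in Arabidopsis, had 34 reads at time point B and 15 at time point A and was not called (0.85 ± 0.75, limma adjusted p = 0.521).

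Members of 2 further lists ranged from abundant to scarce. Acetyl-CoA carboxylase 1 (ACC1, c92877_g1), which makes malonyl-CoA, had 480, 309, 293 and 289 CPM in plots 1 to 4 at time point B, against 216, 153, 228 and 196 at time point A. The time points were apart and the rise was 0.77 ± 0.21 (limma adjusted p = 0.024), not called without plot 1 (0.133) or plot 2 (0.123). Lipid phosphate phosphatases c71712_g1 and c72386_g1 were not called (-0.75 ± 0.46 and 0.30 ± 0.40), and a lipid-transfer protein had 0 reads at time point B and 3 at time point A. An aspartyl protease, c87028_g2, had 419, 370, 532 and 369 CPM at time point B, against 786, 828, 1249 and 902 at time point A. It fell in each plot by a similar amount (-1.15 ± 0.23, limma adjusted p = 0.00486), and the call held with any plot left out. A cysteine protease, c77979_g6, rose by 1.18 ± 0.42 (limma adjusted p = 0.0834) on 76 reads at time point B and 23 at time point A, and was lost whichever plot was left out (0.124 to 0.249). The remaining 2 aspartyl proteases, c78495_g3 and c80798_g1, changed by 0.18 ± 0.33 and -0.15 ± 0.24 and were not called. The second was measured about as precisely as c87028_g2.

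No transcript of the flowering list (0 of 3) or the phenylpropanoid list (0 of 4) passed the test in limma, also at an unadjusted p under 0.05 (0 of 7 in all) or with voom on the recovered reads, though 1 phenylpropanoid member was called lower with 5 reads added. Over all transcripts 14.4% were called, so 0 calls in lists this short do not set these members apart. FT-like proteins carry the flowering signal out of the leaf in many plants. The FT-like c64038_g2 had 10.2, 17.5, 18 and 22.2 CPM in plots 1 to 4 at time point B and 10.8, 9.66, 34.9 and 12.7 at time point A, a change of 0.16 ± 0.55 (limma adjusted p = 0.899). Its relative c77009_g3 had 10.3, 19.8, 21.2 and 19.6 at time point B and 22.4, 11.4, 29.3 and 18.9 at time point A (-0.18 ± 0.56, limma adjusted p = 0.879). Plots disagreed in direction for both, and a change of about 1 on the log2 scale is within 2 standard errors of each value. CONSTANS-like 2, c83306_g1, named for a daylength-responsive regulator, changed by 0.80 ± 0.41 (limma adjusted p = 0.232, and 0.0699 without plot 2). In the lignin and flavonoid pathway, a chalcone synthase family member (c68894_g1) changed by -1.50 ± 0.74, cinnamoyl-CoA reductase (c72426_g1) by -0.44 ± 0.29, caffeic acid O-methyltransferase (c77834_g1) by 0.56 ± 0.74 and ALDH2C4 (c79367_g1) by 0.16 ± 0.64. All 4 of these were scarce, with 4 to 136 reads over the libraries of time point B.

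The 36 further matched transcripts outside the 9 lists held 4 higher and 8 lower calls and had a median of -0.06. Over all transcripts 7.15% were called higher and 7.22% lower, the shares beside which the counts that follow stand. The study's lists of eCeT responders can be followed in eT as a whole. Of the 666 transcripts it listed for eCeT against C at time point A, 78 were higher and 120 lower at time point B in eT, with a median of -0.11. Without TMM scaling the split was 88 higher and 67 lower, so its direction depends on the scaling. Of the 71 it listed at time point B, 5 were higher and 38 lower, with a median of -0.51, and without TMM scaling 6 and 20. The study tabulated members of 2 co-expression modules from the first list. Those of module 5 held 16 lower and 3 higher of 35 with a median of -1.49 (-1.43 without 7 members of 3 or fewer reads at a time point), and those of module 3 held 13 lower and 10 higher of 84 with a median of -0.04. Of the 9 heat shock members 8 are in module 5, so these counts are not separate from those above.

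The largest changes among called transcripts whose time points did not overlap belonged to transcripts with no name in the sources used here. The largest rises were those of c71620_g1 and c67630_g1. The c71620_g1 transcript had 3.3, 7.11, 2.2 and 4.16 CPM in plots 1 to 4 at time point B, against 0.795, 0.409, 0 and 0 at time point A (4.15 ± 0.69, limma adjusted p = 0.00123). For c67630_g1 the levels were 12.3, 28.8, 27.3 and 2.9 at time point B and 2.39, 1.8, 0 and 0.644 at time point A (4.08 ± 0.77, limma adjusted p = 0.00297). The largest falls were those of c90848_g2, with 0.254, 0, 0.479 and 0 at time point B and 10.6, 11.1, 38.3 and 2.79 at time point A (-6.52 ± 0.95, limma adjusted p = 0.000488), and of c91273_g1, with 2.7, 0.156, 0.766 and 0 at time point B and 24.5, 35.1, 47.7 and 6.55 at time point A (-6.07 ± 0.98, limma adjusted p = 0.000968). In these falling transcripts plot 3 was the highest and plot 4 the lowest at time point A.

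The largest changes among called transcripts with a mean of 100 CPM or more and separate time points were the following. The largest rise, c96590_g2, had 242, 258, 217 and 177 CPM at time point B, against 118, 60.7, 73.1 and 115 at time point A (1.33 ± 0.21, limma adjusted p = 0.000823). The next, c89298_g1, changed by 1.27 ± 0.21 (limma adjusted p = 0.00105). The largest fall, c74861_g1, had 10.6, 1.56, 24.2 and 6.4 at time point B, against 65.7, 260, 717 and 265 at time point A (-5.05 ± 0.73, limma adjusted p = 0.00044). It was followed by c92786_g1, with 10.9, 4.46, 9.48 and 1.75 at time point B and 433, 206, 138 and 41.7 at time point A (-4.81 ± 0.79, limma adjusted p = 0.00112). All 8 of these calls held with any plot left out. Few transcripts went between 0 reads in all 4 libraries and reads in all 4. Of these, 32 had reads in all 4 libraries of time point B and 0 reads at time point A, of which 16 were called, and 26 had the reverse, of which 26 were called. They were picked on the values tested, so the calls add no separate support, and 14.4% of all transcripts were called. Their median was 13 and 17 reads over 4 libraries, and all called ones lay under 1 CPM. None of them had more than 98 reads over 4 libraries. The libraries of time point A were smaller, so 0 reads is reached more easily there and stands for a higher value. These counts therefore do not compare the directions.

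The time change in eT was then set beside that of the other treatments, which share no library with it. Transcripts were first selected on the mean change of the 12 other plots alone, in a fit without any eT library. Of 7204 transcripts that were higher at time point B there, 6667 (92.5%) had a change above 0 in eT, with a median of 0.64 in eT beside 0.74 in the other plots, and 2063 were called higher in eT and 0 lower. Of 6558 that were lower, 5996 (91.4%) had a change below 0 in eT, with a median of -0.49 in eT beside -0.59 in the others, and 2317 were called lower in eT and 4 higher. Each eT plot followed, with medians of 0.83, 0.64, 0.53 and 0.36 for the first set and -0.68, -0.57, -0.39 and -0.39 for the second in plots 1 to 4. Calls in the matching direction made up 28.6% of the first set and 35.3% of the second. For the whole transcriptome, rises made up 7.15% and falls 7.22%. Of the 25446 transcripts not called in the other plots, 738 were called higher and 515 lower in eT, and their median was 0.04. Both of these counts are smaller shares of their set than those of the whole transcriptome. The shares of one sign move with the scaling, to 96.1% and 83.2% without TMM scaling and to 77% and 95.5% with 5 reads added.

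**Figure D4:**
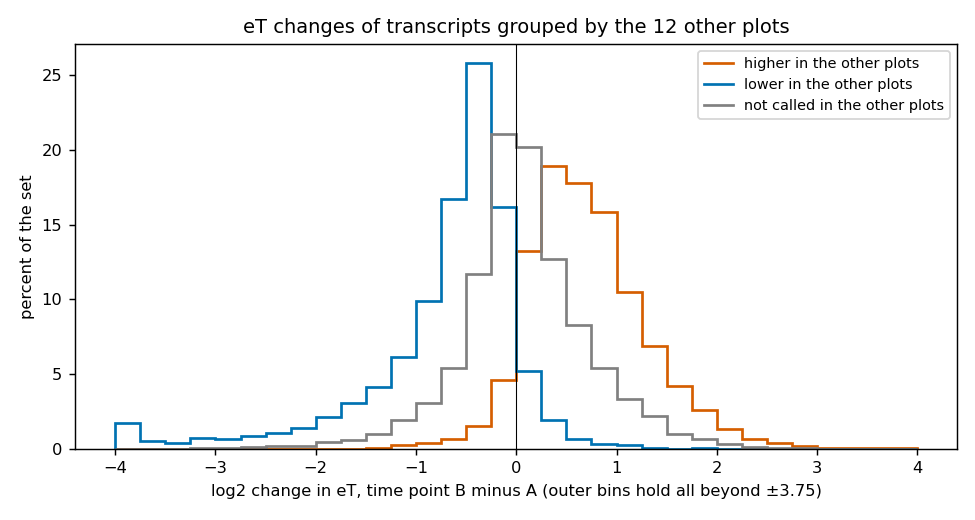
Distribution of the log2 change in eT, time point B minus A, for transcripts called higher (orange, 7204), called lower (blue, 6558) or not called (grey, 25446) in the mean of the 12 eCeT, eC and C plots, in percent of each set. The orange set centres at 0.64 and the blue set at -0.49 in eT, although no eT library was used to choose them.

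The calls made in eT, 14.4% of all transcripts, overlapped with those of each other treatment, nearly all in the same direction. In eCeT 2371 transcripts (6.05%) were called, and 1099 of them were called in eT too, 19.5% of the eT calls and 46.4% of the eCeT calls, 1098 with the same sign. In eC 5262 (13.4%) were called and 2485 shared, 44.1% of the eT calls and 47.2% of the eC calls, all with the same sign. In C 5526 (14.1%) were called and 2337 shared, 41.5% of the eT calls and 42.3% of the C calls, 2333 with the same sign. In none of the 3 were 2162 (38.4%) of the eT calls found. Those counts move with single plots: without 1 plot of its own, eCeT had 279 (plot 3) to 1742 calls, eC 1356 (plot 2) to 3848 and C 1288 (plot 3) to 5792.

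A test of the difference itself found no transcript whose time change in eT stood apart. In limma, 0 of 39208 passed for eT minus eCeT, eT minus eC, eT minus C and eT minus the mean of the other treatments, and the smallest adjusted p were 0.59, 0.94, 0.893 and 0.838. At an unadjusted p under 0.05 there were 2956, 2002, 2168 and 2195 transcripts, where a share of 0.05 of the 39208 would pass with no difference anywhere. The count was highest for eT minus eCeT and lowest, nearest that share, for eT minus eC. The median standard error of a difference from 1 treatment was 0.53 on the log2 scale over all transcripts and 0.24 for those of 10 CPM or more, so differences of the size of 1 standard error or a few are not resolved. The 2162 transcripts called in eT and in no other treatment are thus not shown to be particular to eT. How far a plot moved as a whole also did not separate eT. The root mean squared log2 difference between the libraries of a plot was 1.17, 1.13, 1.26 and 1.11 in eT and 1.1, 1.06, 1.35 and 1.29 in C, with a difference of means of -0.0282 (2-sided exact permutation p = 0.743, smallest possible 0.0286). Against the 12 other plots the difference was 0.0101 (2-sided exact permutation p = 0.871).

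The same side-by-side view holds for the lists. Over all transcripts, 7.22% were called lower in eT, 2.94% in eCeT, 7.46% in eC and 6.62% in C, and 7.15%, 3.1%, 5.96% and 7.47% were called higher in these treatments. Heat shock members called lower numbered 6 of 9 in eT, 4 in eCeT, 8 in eC and 3 in C, with medians of -1.6, -1.30, -1.67 and -0.73. Pathogenesis-related members called lower numbered 5 of 12 in eT, 1 in eCeT, 5 in eC and 10 in C, with medians of -1.01, -0.32, -1.08 and -2.04. Receptor kinase and NB-ARC members called higher numbered 4 of 14 in eT, 5 in eCeT, 0 in eC and 0 in C, with medians of 0.87, 1.45, 0.08 and -0.08. Libraries of C and eCeT took part in choosing the list members, and those of every treatment in the correlations at time point B. The counts and medians, those of C and eCeT in particular, are therefore not independent of that choice. No member of any list passed a test of the difference. For the PR1-type protein (c93531_g5) the change was -1.69 ± 0.33 in eT, -0.45 in eCeT, -1.53 in eC and -2.57 in C, and eT minus eCeT was -1.24 ± 0.47 (limma adjusted p = 0.598). For the class I small heat shock protein (c76756_g2) it was -2.47 ± 0.55 in eT, -1.42 in eCeT, -1.67 in eC and -1.44 in C, and eT minus C was -1.03 ± 0.78 (limma adjusted p = 0.94). CYP79 (c92299_g1) changed by -3.94 ± 0.73 in eT, -2.15 in eCeT, -1.69 in eC and -1.28 in C, and was called in eT alone, but eT minus C was -2.66 ± 1.04 (limma adjusted p = 0.893). The ACC1 transcript (c92877_g1) rose in every treatment, by 0.77 ± 0.21 in eT, 0.81 in eCeT, 1.08 in eC and 1.62 in C, and the aspartyl protease c87028_g2 fell in every treatment, at -1.15 ± 0.23 in eT, -1.05 in eCeT, -1.48 in eC and -1.2 in C.

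**Figure D5:**
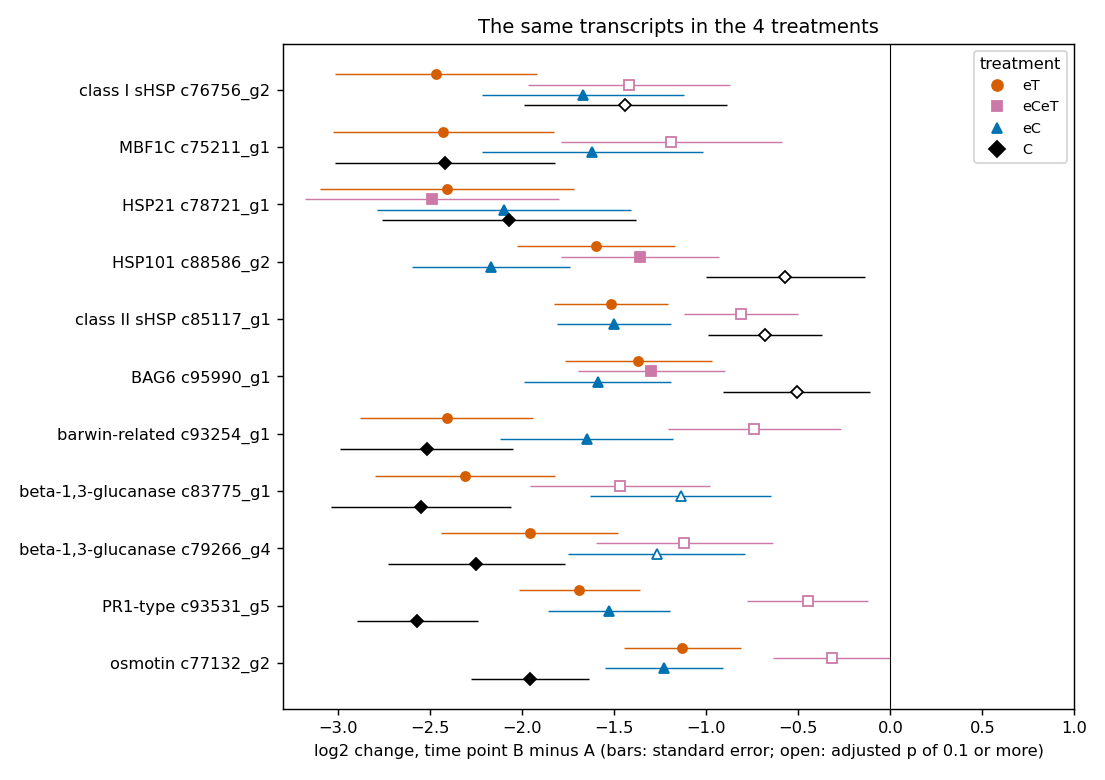
Log2 change, time point B minus A, with its standard error, of the called heat shock and pathogenesis-related transcripts in eT (circles), eCeT (squares), eC (triangles) and C (diamonds); open symbols did not pass an adjusted p of 0.1. All values lie below 0 in all 4 treatments, and PR1-type is at -1.69 in eT, -0.45 in eCeT and -2.57 in C.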

How the data were processed

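Leaf RNA-seq covered 32 libraries, of which the 8 eT libraries carry the results here. The authors assembled the reads de novo with Trinity, kept genes with at least 10 reads over the replicates of a treatment, and deposited log2 values (voom with TMM scaling, log2 of reads plus 0.5, scaled per 1000000) for 39208 transcripts. The authors also deposited FPKM for 45073 transcripts, used here only as an alternative and without 3 columns whose header lines disagree. The aligner and counter are not given in the sources used here. Whole reads were recovered from the log2 values, within 0.02 for 100% of values up to 1000 reads, and counting limits cover counting error only.

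limma 3.58.1 in R 4.3.3 fitted all 32 libraries with a term for each of 16 plots and 1 time effect per treatment (12 residual degrees of freedom), moderated with a trend. Transcripts were called at a Benjamini-Hochberg adjusted p under 0.1. The labels give the same plot number at both time points, which pairs the libraries, and within eT the deviations of a plot at B and A correlated at -0.00464, 0.162, -0.0225 and 0.116. Exact permutation tests used scipy 1.17.1. Alternatives were fits without the plot term or with plot as a random effect, other scalings, filters, pseudocounts and moderation, and each plot left out.

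The members and lists were chosen with earlier results of these data known. Named transcripts are up to 4 called members of each list (all of a short list), the 2 largest rises and falls among called transcripts with separate time points, the same at 100 CPM or more, and the transcript with most reads. Other list members, and the selection on the 12 other plots, were added after values had been seen.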

Additional observations from a re-analysis of the deposited data

Results flagged for a closer look

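In 1 of the 35 sets of 4 values screened, a value stood apart from the others by Dixon's 95% criterion, about as many as chance allows (1 in 20 sets). It was the log2 change of the receptor kinase c80773_g2 in eT plot 3, 2.80, where the library of time point A held 1 read. Without that plot the transcript was not called (limma adjusted p = 0.107).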

How the results depend on the processing

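The count of 5637 called transcripts in eT became 2855 with FPKM and a pseudocount of 0.1, 2728 with FPKM and a pseudocount of 1, and 3402 at an adjusted p under 0.05, and 2737 to 4503 with an eT plot left out. Without the plot term (no replicate block) it was 5129, of which 4780 were among the calls reported, and the block changed no count by over 1.5 times; without it the S-locus lectin kinase c73129_g1 (limma adjusted p = 0.109), the wall-associated kinase c89574_g8 (0.139) and the cysteine protease c77979_g6 (0.103) were not called. The other alternatives gave 4303 to 5987. The 4 differences of the time change from other treatments stayed at 0 calls under every alternative run, with the exception of 1 call for eT minus eC with FPKM and a pseudocount of 1, and leaving out a plot gave 0 to 0. For named transcripts no alternative turned a direction of a called change, and 23, 22, 27 and 27 of the 32 called kept their call without plots 1 to 4 in turn. With FPKM, 11 of the 32 calls were lost at each pseudocount. At 0.1 these included HSP21 (limma adjusted p = 0.125), BAG6 (0.116), the osmotin c77132_g2 (0.13) and ACC1 (0.155). The NDH-dependent protein c84013_g1 (0.11) and the receptor kinase c80773_g2 (0.107) were lost there as well. Without the variance trend 5 calls were lost, and with quantile normalization 4. The distances between time points gave no call under any alternative. Reads limit the scarce transcripts: the receptor kinase list in particular holds 7 to 155 reads per time point in its called members, and its values move with the reads added.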
